A study of Arabidopsis thaliana with 12 samples.

Results

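AT3G51510, a gene annotated as a transmembrane protein, and AT2G32040, which encodes a folate transporter of the plastid, are 2 of the 689 *Arabidopsis thaliana* loci that the array's annotation ties to a probe of their own. Each had 1 probe, numbered 787 for AT3G51510 and 1179 for AT2G32040, and neither gene was listed on a probe shared with other genes. Both genes were selected on their intensities in the same contrast that is described here, laf6 in light against wild type in darkness, so those values are a description, and neither their standard errors nor their calls are a test of either gene.

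The data were 12 samples of total RNA from the landsberg ecotype, hybridised to an expression array. Of these, 6 were from the laf6 mutant, dark adapted and then placed for 1 h in normal light. The other 6 were from wild type plants (WT) that were dark adapted only. The laf6 mutant lacks atABC1, a plastid protein also called SUFB that belongs to the machinery of iron-sulfur cluster assembly. Because genotype and light changed together, their parts in any difference cannot be told apart. The labels name no tissue, age or growth stage, and nothing in them ties a sample number to a plant or culture. In such bulk RNA, fewer cells of a type and less RNA per cell cannot be told apart either. SUFB had no probe with 1 gene, so the labels could not be checked on the mutated gene.

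The plastid is bounded by an envelope of membranes, and metabolites, lipids and proteins enter and leave it through dedicated proteins in that envelope. Folates are cofactors that carry single-carbon units for the synthesis of purines, thymidylate, methionine and formyl-methionyl tRNA. Plants assemble folate in mitochondria, while the plastid supplies the p-aminobenzoate part, and plastids hold folates of their own. AT2G32040 belongs to a family of membrane carriers related to a cyanobacterial folate transporter, and its protein sits in the plastid envelope. No activity of the AT3G51510 protein is stated in the sources at hand, and no value in the data bears on its place in the cell.

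Intensities were deposited on a linear scale from 0 to 100, and the median probe of a sample lay between 0.161 and 0.170 in laf6 and between 0.218 and 0.289 in WT. Both genes were thus well below the brightest probes but were above 0 in all 12 samples. The number of samples limits the precision.

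AT3G51510 was brighter in the illuminated mutant. In laf6 after light its deposited intensity was 0.892, 0.961, 0.866, 0.490, 0.676 and 0.756 in samples 1 to 6. In dark-adapted WT it was 0.250, 0.189, 0.257, 0.462, 0.175 and 0.314 in samples 1 to 6. The groups did not overlap, but the lowest laf6 sample, number 4, stood only just above the highest WT sample, also number 4. Samples numbered 1 and 2, 3 and 4, and 5 and 6 were averaged, which gave 3 replicates per group. No label gives these pairs, and every n of 3 rests on an earlier account of these values. For laf6 samples 1 and 2 the deviations from the group mean hardly correlated (0.016). On the averaged replicates the mean was 0.773 ± 0.134 in laf6 and 0.274 ± 0.0744 in WT (SD, n = 3 each), a 2.82-fold higher level in laf6.

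AT2G32040 went the other way. In laf6 after light its deposited intensity was 0.229, 0.260, 0.177, 0.191, 0.363 and 0.207 in samples 1 to 6. In dark-adapted WT it was 0.759, 0.713, 0.646, 0.819, 0.519 and 0.457 in samples 1 to 6. Again the groups did not overlap, and the highest laf6 sample, number 5, came nearest to the lowest WT sample, number 6. The mean was 0.238 ± 0.0507 in laf6 and 0.652 ± 0.142 in WT (SD, n = 3 each), so that laf6 had 0.365 of the WT level.

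Over the whole array, 4.54% of the 3439 probes had all laf6 samples above all WT samples in the deposited values, and 17.9% had all laf6 samples below. A position like that of AT2G32040 was therefore the more common one before normalisation. After quantile normalisation of the 12 samples these shares were 7.97% and 7.73%. Both genes remained without overlap on that scale, with a gap between the groups of 0.72 on the log2 scale for AT3G51510 and of 0.055 for AT2G32040.

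**Figure D1:**
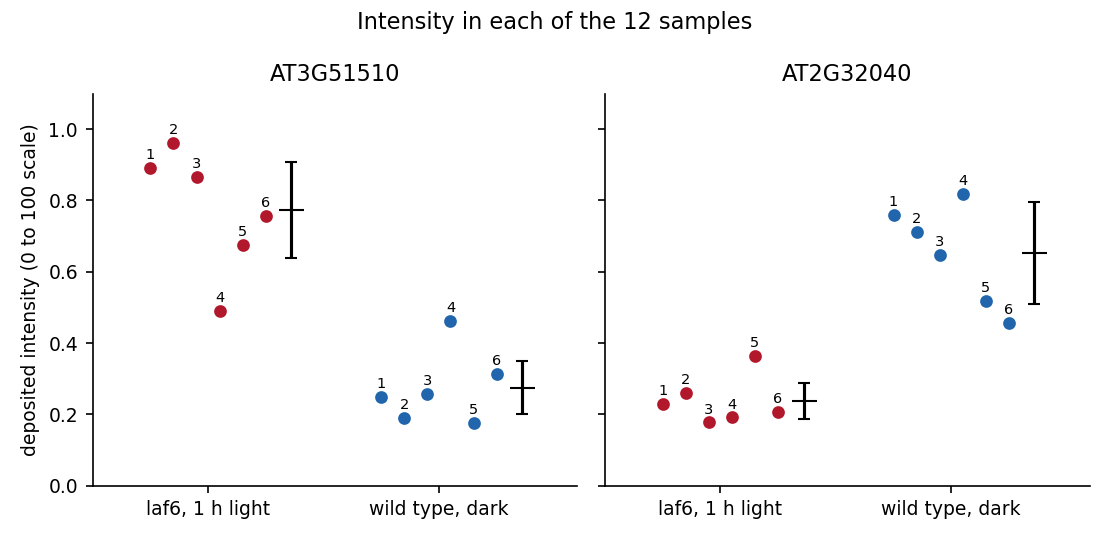
Deposited intensity (linear, 0 to 100 scale) of AT3G51510 and AT2G32040 in the 6 laf6 samples after 1 h of light and the 6 dark-adapted WT samples. Points are samples with their label numbers, and the bar at the right of each group is the mean ± SD of 3 averaged replicates. AT3G51510 lies at 0.490 to 0.961 in laf6 and at 0.175 to 0.462 in WT, and AT2G32040 at 0.177 to 0.363 in laf6 and at 0.457 to 0.819 in WT.

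The size of both differences depended on how the arrays were scaled, because the log2 differences of all probes had a median of -0.54 as deposited. After quantile normalisation of the averaged replicates that median was -0.08. The log2 difference of AT3G51510, laf6 minus WT, was 1.51 as deposited and 1.95 ± 0.21 (SE) after normalisation, a 3.86-fold higher normalised level. For AT2G32040 it was -1.45 as deposited and -0.98 ± 0.20 after normalisation, or 0.507 of the WT level. As deposited the differences were thus of nearly equal size, and normalisation widened that of AT3G51510 and narrowed that of AT2G32040. Set against the median difference of all probes, the deposited differences were 2.05 and -0.91. Their signs were the same in all 16 alternative settings, with a range of 1.51 to 2.12 for AT3G51510 and of -1.45 to -0.81 for AT2G32040.

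With calls made below an adjusted p of 0.05, limma called 9.68% of all probes, 5.47% higher in laf6 and 4.22% lower. Both genes were among these calls, which is how they were chosen, so their calls are no test and nothing is read from them. The calls also had limits. AT2G32040 passed at a limma adjusted p of 0.04998, and 6 of 16 alternative settings called it, against 14 for AT3G51510. Under a replicate block neither gene was called, and 0.378% of all probes were. With a pseudocount added to that block 8.58% of all probes were called, AT3G51510 among them and AT2G32040 not. AT2G32040 was not called after centring on medians, after cyclic loess or in any of the 6 fits that left out 1 replicate, where its difference lay between -1.10 and -0.81. AT3G51510 was not called without WT replicate 3, at a difference of 2.01.

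The rank of a gene within its own sample needs no scaling between arrays. AT3G51510 was brighter than 77.1% to 88.1% of the probes of its sample in laf6, and brighter than 42.3% to 64.0% in WT. It thus stood near the middle of the array in dark-adapted WT and well above the middle in the illuminated mutant. AT2G32040 was brighter than 52.1% to 71.4% of the probes in laf6, and brighter than 72.3% to 81.3% in WT. The laf6 sample number 5 and the WT sample number 6 set the narrow gap between these ranges.

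**Figure D2:**
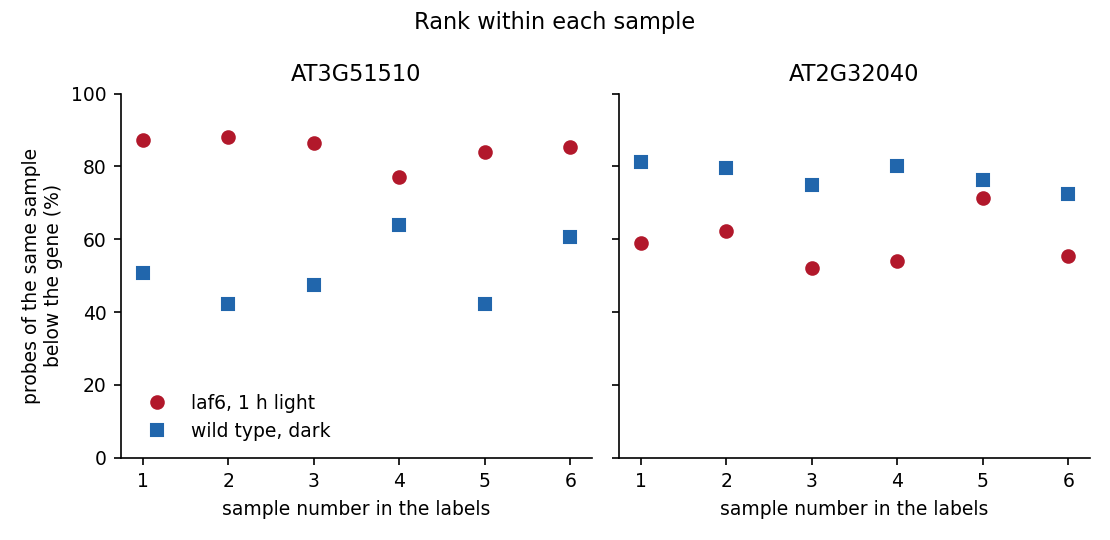
Share of the 3439 probes of the same sample that were dimmer than AT3G51510 and AT2G32040 (percent, vertical axis), for each sample number in the labels. Red circles are laf6 after 1 h of light and blue squares dark-adapted WT. AT3G51510 ranks higher in laf6 (77.1% to 88.1%) than in WT (42.3% to 64.0%), and AT2G32040 ranks lower in laf6 (52.1% to 71.4%) than in WT (72.3% to 81.3%).

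The ratio of both intensities within a sample is also free of a factor common to the array. AT3G51510 over AT2G32040 was 3.89, 3.70, 4.88, 2.56, 1.86 and 3.65 in laf6 samples 1 to 6. In WT samples 1 to 6 it was 0.329, 0.266, 0.397, 0.564, 0.338 and 0.688. The ratio was above 1 in every laf6 sample and below 1 in every WT sample, so the order of both signals was opposite in the groups. On the log2 scale the ratio averaged 1.71 ± 0.33 in laf6 and -1.26 ± 0.42 in WT (SD, n = 3 each), a difference of 2.97 or 7.81-fold. A ratio of this kind shows unequal change of both signals and does not compare the abundance of both RNAs, since probes differ in brightness. Both genes were chosen on this contrast, so a shift of their ratio followed in part from the choice.

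Samples that share a number in both groups deviated together over the array, with correlations of 0.26 to 0.57 for the 6 numbers over 1387 brighter probes. The groups were therefore also set side by side by number. For AT3G51510 the laf6 sample had 3.57, 5.07, 3.37, 1.06, 3.86 and 2.41 times the deposited intensity of the WT sample of the same number, from 1 to 6. Number 4 stood apart, with nearly equal deposited intensities in both groups. After normalisation its log2 difference was 0.72, against 1.53 to 2.79 for the other numbers. For AT2G32040 the laf6 sample had 0.302, 0.365, 0.274, 0.233, 0.700 and 0.454 times the WT intensity. Here number 5 had the smallest difference and number 4 the greatest, also after normalisation (log2 differences of -0.29 and -1.42).

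The consecutive samples that were averaged differed by 1.08-fold to 1.80-fold for AT3G51510 and by 1.07-fold to 1.75-fold for AT2G32040. The wide pairs of AT3G51510 were laf6 samples 3 and 4 (1.76-fold), WT samples 3 and 4 (1.80-fold) and WT samples 5 and 6 (1.80-fold). The wide pair of AT2G32040 was laf6 samples 5 and 6 (1.75-fold). Across replicates the coefficient of variation of AT3G51510 was 17.3% in laf6 and 27.1% in WT. That of AT2G32040 was 21.3% in laf6 and 21.8% in WT.

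Among the 634 probes with 1 gene that were not at 0 throughout a group, AT3G51510 had the 37th highest normalised difference. AT2G32040 had the 74th lowest. Within a 1.5-fold window around its own mean intensity, AT3G51510 ranked 10th of 660 probes from the top. Within its window AT2G32040 ranked 24th of 758 from the bottom. The median difference in these windows was -0.14 and -0.11. Since both genes were chosen on this contrast, the choice fixed these ranks in part beforehand.

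**Figure D3:**
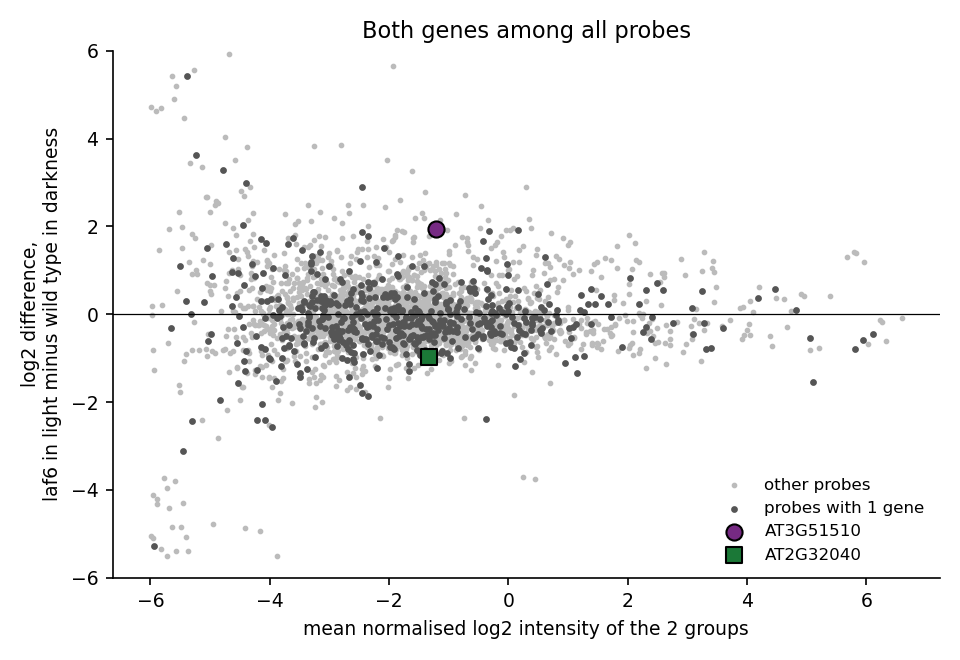
Quantile normalised log2 difference, laf6 after light minus dark-adapted WT (vertical axis), against the mean normalised log2 intensity of both groups (horizontal axis). Grey points are probes with no gene or several, dark points probes with 1 gene, and 724 of 3439 probes have a mean below -6 or a difference beyond ±6 and are not drawn. AT3G51510 lies at 1.95, where probes of like intensity have a 95th percentile of 1.16. AT2G32040 lies at -0.98, where they have a 5th percentile of -0.88. Both genes were chosen on this contrast, which fixed their standing in part.

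Folate metabolism itself could hardly be read from the array. None of 39 loci of folate synthesis and of single-carbon metabolism had a probe with 1 gene, and of 11 folate transporters and their relatives only AT2G32040 had one. Another 3 probes were annotated with several genes that all belong to the family of AT2G32040, and they cannot be assigned to a member. Probe 1453 had 0.128 ± 0.0279 in laf6 and 0.221 ± 0.0229 in WT. Probe 1471 had 0.125 ± 0.0338 in laf6 and 0.179 ± 0.0451 in WT (SD, n = 3 each). As deposited their log2 differences were -0.81 and -0.52, against a median of -0.54 over all probes. After normalisation these differences were -0.18 ± 0.17 and 0.15 ± 0.31 (SE). Neither passed the threshold (limma adjusted p = 0.558 and 0.815). The sign of probe 1471 thus depended on the scaling.

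Probe 2657, also annotated only with relatives of AT2G32040, was near the floor of the array in laf6. It was listed at 0 in 3 of 6 laf6 samples and reached at most 0.0570 in the others. In WT it lay between 0.0109 and 0.260 and was above 0 in every sample. The groups overlapped through WT sample 1, and the limma adjusted p was 0.401, but 0.0516 with a pseudocount and no block. No fold is given, since it would depend on the value set for the zeros, as the p does. Of these 3 family probes limma called 0 in the main fit, where 0 had an unadjusted p under 0.05, against 25.9% of all probes. With the pseudocount probe 2657 had an unadjusted limma p of 0.0071, and 0 of 16 alternative settings called it.

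A pair of enzymes around folate had probes of their own, and they were singled out after the probe names and values had been read. AT1G31220, the phosphoribosylglycinamide formyltransferase that uses a folate cofactor in purine synthesis, had 0.172 ± 0.0279 in laf6 and 0.257 ± 0.0773 in WT (SD, n = 3 each). Its normalised log2 difference was 0.06 ± 0.30 (SE), with a limma adjusted p of 0.942, and -0.55 as deposited. AT1G10310, a pterin aldehyde reductase of folate salvage, had 0.282 ± 0.0517 in laf6 and 0.535 ± 0.0447 in WT. Its deposited samples did not overlap, with 0.202 to 0.403 in laf6 and 0.434 to 0.654 in WT. Of all probes, 17.9% likewise had all deposited laf6 samples below all WT samples. After normalisation the samples of AT1G10310 overlapped, at a log2 difference of -0.46 ± 0.22 with a limma adjusted p of 0.282, against -0.94 as deposited. Of 16 alternative settings, 1 called AT1G10310, the one without normalisation, where 360 of 3439 probes were called lower.

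Other carriers of the plastid were also few. Of 39 loci of envelope and thylakoid transporters 2 had a probe with 1 gene, and of 13 loci of protein import and 12 of plastid iron-sulfur cluster assembly 0 had one. With loci added after the probe names had been read, 5 plastid carriers and fatty acid export proteins were measured. Of these limma called 0, and 1 had an unadjusted p under 0.05, which 25.9% of all probes had. AT3G25410, of the bile acid:sodium symporter family, had 0.273 ± 0.0377 in laf6 and 0.186 ± 0.0518 in WT (SD, n = 3 each). Its samples overlapped, and its log2 difference was 1.18 ± 0.26 (SE) after normalisation (limma adjusted p = 0.0642) and 0.58 as deposited. It was called in 6 of 16 alternative settings, among them the one without WT replicate 1, where the difference was 1.44. AT2G38550, of the FAX family that exports fatty acids from plastids, had 1.46 ± 0.313 in laf6 and 1.49 ± 0.0831 in WT, a normalised log2 difference of 0.16 ± 0.15 (limma adjusted p = 0.568) that was -0.05 as deposited.

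The other 3 carriers lay at the floor in part or all of the samples. LrgB (AT1G32080), which moves glycolate and glycerate across the envelope in photorespiration, was listed at 0 in all 12 samples. AT5G59250, a plastid sugar transporter, was listed at 0 in 4 of 6 samples in each group. AT5G17630, the xylulose 5-phosphate translocator, was at 0 in 1 of 6 samples in each group and reached at most 0.0611 in laf6 and 0.0869 in WT.

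A list of 8 other integral membrane proteins of the plastid was drawn up after the probe names had been read. It had 1 member called higher and 0 called lower, where 5.47% and 4.22% of all probes were. The called gene was AT1G78620, the phytyl phosphate kinase of tocopherol synthesis, with 1.93 ± 0.232 in laf6 and 1.34 ± 0.231 in WT (SD, n = 3 each). Its log2 difference was 0.69 ± 0.13 (SE) after normalisation (limma adjusted p = 0.0472) and 0.53 as deposited, and with the replicate block its adjusted p was 0.139. It was called in 7 of 16 alternative settings, and of the 6 that left out a replicate only in that without WT replicate 1 (difference 0.81). The other 5 left a difference of at least 0.62. The differences of the 8 ran from -0.77 to 0.69 with a median of -0.16, against -0.08 over all probes. Of the 8, 5 had an unadjusted limma p under 0.05, some higher and some lower in laf6, against 25.9% of all probes. The 3 brightest members were proteins of photosystem II and its antenna. LHB1B2, a chlorophyll-binding antenna protein with close copies in the genome, had a log2 difference of 0.57 ± 0.17 (limma adjusted p = 0.113), and PSBY, a photosystem II subunit, had 0.41 ± 0.15 (limma adjusted p = 0.183). PSBW, another subunit of photosystem II, had -0.46 ± 0.17 (limma adjusted p = 0.187), but 0.48 with replicates centred on their medians, and its WT sample 2 was at the ceiling of 100. After normalisation the difference of AT3G51510 lay above and that of AT2G32040 below the whole range of the 8, which the choice of both genes fixed in part beforehand. As deposited, Z-ISO (AT1G10830, -1.28) and SECE1 (AT4G14870, -0.72) were also lower in laf6 without overlap of the groups, as 17.9% of all probes were. AT1G78620 and LHB1B2 were higher without overlap, as 4.54% of all probes were. Normalised, Z-ISO (-0.73 ± 0.19) and SECE1 (-0.31 ± 0.15) overlapped, and the groups of LHB1B2 met at 4.59 on the log2 scale. AT1G78620 stayed without overlap, as 7.97% of all probes did in that direction. Z-ISO was called in 3 of 16 alternative settings.

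**Figure D4:**
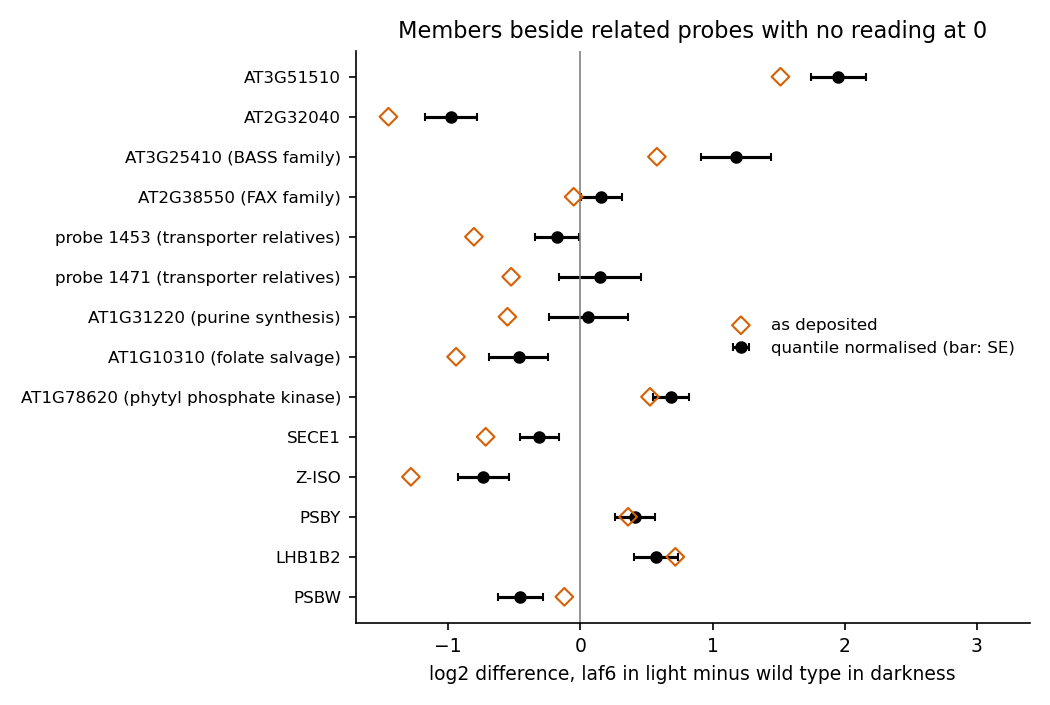
Log2 difference, laf6 after light minus dark-adapted WT, of AT3G51510 and AT2G32040 beside related probes that were above 0 in all samples. Black points are quantile normalised differences with their SE from limma (3 averaged replicates per group), and open orange diamonds are the deposited values. AT3G51510 (1.95) and AT2G32040 (-0.98) are the highest and the lowest normalised differences shown, and as deposited most of the other probes lie below 0. Both genes were chosen on this contrast, which fixed their place in part. Related probes with a reading at 0, such as probe 2657 and AT5G59250, are not drawn.

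By position on the chromosomes, the gene table (TAIR10.1) places AT3G51510 on chromosome 3 between AT3G51500 and DGAT2 (AT3G51520). AT3G51500 was the measured neighbour, with deposited intensities of 0 to 0.272 in laf6 and of 0 to 0.604 in WT. It was listed at 0 in 2 of 6 laf6 samples and in 1 of 6 WT samples. Its groups overlapped widely and its limma adjusted p was 0.756. AT2G32040 lies on chromosome 2, and its annotated span overlaps that of the next gene, AT2G32050. No source at hand gives the position or strand of the array probes, so a part of AT2G32050 RNA in the signal of probe 1179 was not tested. AT2G32050, AT2G32030 and DGAT2 had no probe.

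Within the groups, AT3G51510 and AT2G32040 did not vary together. The Pearson correlation of their normalised log2 deviations from the group means was 0.05 over the 12 samples. All 12 share the array design, and consecutive numbers may be repeat measurements. Among 456 probes with 1 gene and no value at 0, the 5 whose deviations were most like those of AT3G51510 had correlations of 0.66 to 0.76. These were AT1G15410 (an aspartate-glutamate racemase family protein, 0.76), AT3G50130 (0.71), AT5G55580 (an mTERF protein, 0.71), AT3G04210 (a TIR-NBS disease resistance protein, 0.67) and AT2G41950 (0.66). Between the groups limma called 0 of these 5, and 3 had an unadjusted p under 0.05, against 25.9% of all probes.

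The 5 most like AT2G32040 had correlations of 0.68 to 0.72. They were AT3G56130 (a biotin/lipoyl attachment domain protein, 0.72), AT1G62010 (an mTERF protein, 0.71), AT3G06570 (0.71), PIFI (AT3G15840, a plastid protein named for a rise in chlorophyll fluorescence after illumination, 0.70) and AT1G10310 (0.68). Between the groups AT3G56130 was called lower in laf6, as 4.22% of all probes were, with a log2 difference of -1.04. AT3G06570 was called higher, as 5.47% of all probes were, with 0.84. With the replicate block neither was called (limma adjusted p = 0.104 and 0.0914), while with pseudocount and block AT3G06570 was (limma adjusted p = 0.0439) and AT3G56130 was not (limma adjusted p = 0.0508). With so many probes and 12 samples these values are descriptions of the samples.

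**Figure D5:**
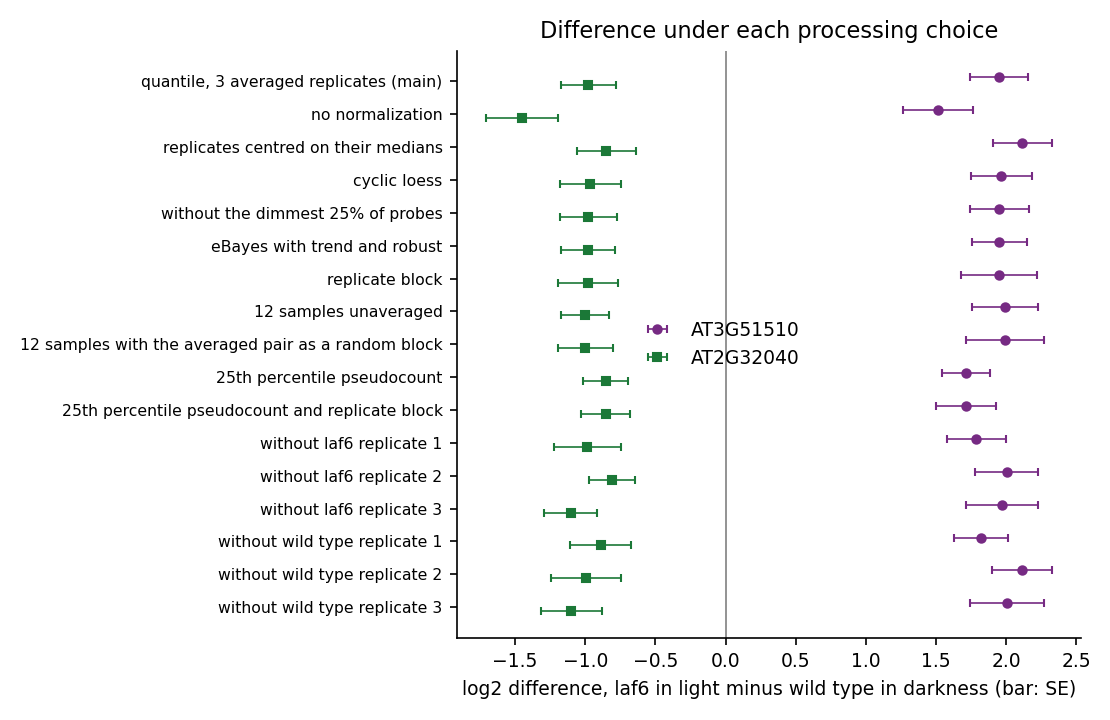
Log2 difference, laf6 after light minus dark-adapted WT (horizontal axis), of AT3G51510 (purple circles) and AT2G32040 (green squares) under the main processing and 16 alternatives. Bars are the SE from limma. AT3G51510 lies between 1.51 and 2.12 and AT2G32040 between -1.45 and -0.81, and the setting without normalisation stands apart for both.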

How the data were processed

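The authors deposited spot intensities on a linear scale, and no source at hand says how they corrected the background or set the limits at 0 and 100. The share of probes at 0 ran from 13.0% to 19.3% over the samples, and 1 to 5 probes per sample were at 100. Probes were named through the platform annotation, of whose 692 probes with 1 gene 690 matched the TAIR10.1 gene table, by gene ID. Samples numbered 1 and 2, 3 and 4, and 5 and 6 were averaged as intensities, following an earlier account of these values and not a label. Their deviations from the group mean correlated at 0.016 to 0.68, against -0.63 to 0.17 for other pairs of a group, and samples 1 and 2 were the least alike (0.016 in laf6, 0.12 in WT). Zeros took the smallest value above 0 in the averaged table, log2 values were quantile normalised, and laf6 was compared with WT over all 3439 probes in limma 3.58.1 (R 4.3.3, lmFit and eBayes, Benjamini-Hochberg adjustment). The test was checked on simulated data.

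Same-numbered replicates of both groups deviated together, with correlations of 0.55, 0.45 and 0.16 over 1387 probes with a mean above 0.3 (0.18, 0.098 and 0.16 over all probes), which was taken as pairing from the values alone. The main test had no block, and results that the block changes are given with it. Since no label ties the samples to separate plants, p-values reflect their spread alone, and it may be technical. The members and the gene lists were chosen with earlier results of these data known. The genes named are both members, the called and the 3 brightest members of the 8 membrane proteins, all measured members of the smaller lists, a chromosomal neighbour, and for each member the 5 probes most like it within groups. Z-ISO and SECE1 of the 8 were added because their deposited groups did not overlap. Lists by product name were planned, but the gene table holds no product names, and a search of its synonyms yielded 0 measured loci. Alternatives changed the normalisation, the filter, the variance model, the averaging, the block, the treatment of zeros and the replicates used.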

Additional observations from a re-analysis of the deposited data

Results flagged for a closer look

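Of 44 sets of 6 deposited values examined, 2 held a sample that stood apart from the other 5 by Dixon's criterion, which chance meets in about 1 of 20 sets. Probe 1471, annotated with several relatives of AT2G32040, had 0.250 in laf6 sample 1, against 0.0779 to 0.122 in the other laf6 samples. AT1G31220, of purine synthesis, had 0.0864 in laf6 sample 4, against 0.163 to 0.205 in the other laf6 samples. Neither AT3G51510 nor AT2G32040 had such a sample in either group.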

How the results depend on the processing

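The differences of AT3G51510 and AT2G32040 kept their signs in all 16 alternatives, and only the deposited scale moved them by more than 1 SD between replicates, to 1.51 and -1.45. Leaving out a replicate gave 1.79 to 2.11 and -1.10 to -0.81, and 2.71 to 3.11 for the difference in their log2 ratio. The calls of other probes depended more on the setting. Against 188 probes higher and 145 lower of all 3439, limma called 114 and 360 without normalisation. There were 208 and 45 with replicates centred on their medians, 141 and 59 after cyclic loess, and 273 and 231 with trend and robust settings. It called 353 and 421 with 12 samples unaveraged and 305 and 344 with the averaged pair as a random block, where consecutive samples entered separately. With the replicate block there were 4 and 9, but 174 and 121 with pseudocount and block. The pseudocount alone gave 260 and 209, and leaving out the dimmest 25% of probes gave 223 and 154 from fewer probes. Leaving out a replicate left 59 to 114 higher and 32 to 83 lower, from fewer samples by construction. The list counts that follow are to be read beside these counts over all probes in the same setting. Of the 8 other membrane proteins, where 1 was called, 0 were called after cyclic loess, with the replicate block and with pseudocount and block, 2 with trend and robust settings, 5 in each fit of 12 samples, and 0 to 1 without a replicate. Of the 5 carriers, where 0 were called, 1 was called without the dimmest 25% of probes, with trend and robust settings, with the pseudocount and in each fit of 12 samples, and 0 to 1 without a replicate. Of the enzymes around folate 1 was called without normalisation, where 360 of all 3439 probes were called lower. The replicate block ended the calls of AT3G51510, AT2G32040, AT1G78620, AT3G56130 and AT3G06570, and with the pseudocount AT3G51510 and AT3G06570 stayed called. The cause of the other changes was not tested. Values near 0 have no order, and values at 100 are bounds.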
